A study of Mus musculus with 9 samples.

Results

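The 93 genes described here encode the nuclear subunits of the mitochondrial respiratory chain and ATP synthase, with a few of the factors that assemble them. They were taken by symbol: every gene whose single annotated name starts with Nduf, Sdha to Sdhd, Uqcr, Cox4i, Cox5 to Cox8 or Atp5, pseudogene names left out. They made up 93 of the 19938 genes measured. Of these, 36 encode complex I subunits, 4 complex II, 8 complex III, 17 complex IV and 17 complex V (the ATP synthase). The grouping follows the names, so Ndufa4, now counted as a subunit of complex IV, and its paralogue Ndufa4l2 are among the 36. A further 7 are complex I assembly factors (the Ndufaf genes), and 4 are complex II assembly factors (the Sdhaf genes). Subunits encoded by mitochondrial DNA were not analysed here.

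The respiratory chain lies in the inner mitochondrial membrane. Complexes I and II pass electrons from NADH and succinate to ubiquinone, complex III passes them to cytochrome c and complex IV to oxygen, and complexes I, III and IV pump protons as they do so. Complex V uses the proton gradient to make ATP. Several subunits exist as tissue-restricted isoforms, and transcription of the nuclear genes is known to depend on the factors NRF1, GABP and ERR-alpha with their coactivator PGC-1alpha.

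Total RNA from 9 frozen samples of mouse mammary tumours was hybridised to Affymetrix Mouse Gene 1.0 ST arrays, 3 arrays for each of the transplantable cell lines NDL(UCD), Met1(UCD) and SSM2(UCD). Each line is a single cell line, so a difference between groups is a difference between 3 cell lines and not between classes of tumour. As background, NDL cells derive from a mammary tumour of a mouse with an activated ErbB2 transgene driven by the mouse mammary tumour virus promoter, Met1 cells from one driven by polyomavirus middle T, and SSM2 cells from a hormone receptor-positive mammary tumour. All tumours grew in female FVB/NJ hosts that were 6 to 8 weeks old at injection. The fat pads injected kept their own mammary epithelium, and tumours were frozen at a width of 5 to 10 mm. No treatment was given per the labels, which do not say whether the 3 samples of a line came from separate animals. A p-value here therefore measures the spread between samples, which may be partly technical.

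Values were the deposited log2 signals from robust multi-array average (RMA), a method that corrects background, equalises the distributions of the arrays and summarises the probes of a feature. A difference of 1 on this scale is a doubling of signal. Levels of different genes cannot be compared on it, because probes differ in brightness. Small subunits often have near-identical pseudogene copies, and whether their probes also read such copies was not tested. Differences between lines were tested with limma on all 9 arrays, adjusted over all 19938 genes, and a gene was called at an adjusted p under 0.05; SE is the standard error of a log2 difference, and every difference rests on n = 3 arrays per line. The 25th percentile of gene signal was 4.87 and the median 6.39, and of the 93 members 83 had a mean above that median, 9 lay between those marks and 1 lay under the 25th percentile.

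Promoter sequence was examined for letters recognised by the factors named above. RefSeq windows of GRCm38.p6 were at hand for 77 of the 93 members (82 windows, counting alternative starts), each holding the 250 bases before an annotated start. On either strand, the NRF1 letters GCGCANGCG occurred in 19.5% of member windows and in 5.16% of the 32851 windows of all genes. The ETS letters CCGGAAG, which GABP binds, occurred in 18.3% and 6.91%, and the ERR letters TCAAGGTCA in 1.22% and 0.387%. In the member windows, no match of one motif overlapped a match of another, but NRF1 matches could overlap each other on opposite strands. A match is a description of the sequence and not evidence of binding. Of the 77 members, 15 held an NRF1 match, 15 an ETS match and 1 an ERR match. The windows below are examples from members whose signal differed between the lines, and most of those shown hold a match. They do not stand for the called members in general. Sdhaf1, Ndufc2, Ndufa3, Cox7a2 and Ndufaf2, each called in NDL against both other lines, held no match in their windows. Windows are read 5′ to 3′ on the gene's own strand, with each match in capitals. Atp5g3 (chr2:73911327-73911576, minus strand) held the only ERR match among the members, 52 bases before the start. Cox6b1 (chr7:30626115-30626364, minus strand) held an ETS match 28 bases before the start. Ndufa5 (chr6:24527691-24527940, minus strand) held an NRF1 match 26 bases before it, and Ndufaf4 (chr4:24897833-24898082, plus strand) held 2 overlapping NRF1 matches 113 and 112 bases before it. Cox7a1 (chr7:30183921-30184170, plus strand), the muscle isoform with the largest difference between lines, held none of these letters in its window.
Atp5g3: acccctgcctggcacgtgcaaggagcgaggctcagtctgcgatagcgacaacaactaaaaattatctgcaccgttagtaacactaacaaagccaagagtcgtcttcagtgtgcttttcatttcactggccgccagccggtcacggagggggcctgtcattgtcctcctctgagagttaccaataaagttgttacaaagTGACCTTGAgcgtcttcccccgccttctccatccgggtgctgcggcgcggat
Cox6b1: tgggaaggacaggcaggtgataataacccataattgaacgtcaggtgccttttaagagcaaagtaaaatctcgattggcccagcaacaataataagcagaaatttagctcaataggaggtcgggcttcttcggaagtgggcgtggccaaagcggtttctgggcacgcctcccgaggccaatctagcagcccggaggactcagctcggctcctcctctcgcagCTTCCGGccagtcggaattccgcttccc
Ndufa5: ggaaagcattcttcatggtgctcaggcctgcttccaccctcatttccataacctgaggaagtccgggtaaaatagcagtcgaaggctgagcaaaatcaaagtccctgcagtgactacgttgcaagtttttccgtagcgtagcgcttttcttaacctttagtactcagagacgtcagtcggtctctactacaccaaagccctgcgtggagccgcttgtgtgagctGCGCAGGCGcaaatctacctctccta
Ndufaf4: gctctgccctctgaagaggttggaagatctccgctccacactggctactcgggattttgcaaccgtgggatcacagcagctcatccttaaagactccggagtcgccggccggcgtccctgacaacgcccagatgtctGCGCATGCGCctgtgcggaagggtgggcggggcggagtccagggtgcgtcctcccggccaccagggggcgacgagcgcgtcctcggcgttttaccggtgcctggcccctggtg
Cox7a1: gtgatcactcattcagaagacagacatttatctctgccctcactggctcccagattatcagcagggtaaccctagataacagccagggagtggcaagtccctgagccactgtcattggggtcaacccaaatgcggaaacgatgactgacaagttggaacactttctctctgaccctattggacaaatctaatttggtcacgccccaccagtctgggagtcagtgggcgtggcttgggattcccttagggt

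On NDL replicates 1 and 2 the upper quartile of signal over all genes lay at 7.85 and 7.84, and on the other 7 arrays of the series it lay between 7.98 and 8.09. Arrays of the same line correlated across genes at r from 0.947 to 0.995 and arrays of different lines at 0.891 to 0.949, where the genes are not independent points. The 8 epithelial markers averaged 10.68 to 10.75 on the NDL arrays and 10.82 to 11.04 on the SSM2 arrays, but only 6.19 to 8.03 on the Met1 arrays, where the keratin Krt8 stood at 8.45, 8.41 and 6.81. The 7 macrophage markers averaged 9.87 to 10.06 on the Met1 arrays, against 8.44 to 9.16 on the NDL arrays and 8.27 to 9.74 on the SSM2 arrays. Of them, 6 were called lower in NDL than in Met1 and 3 higher in Met1 than in SSM2. Between NDL and SSM2, Cd14 was called higher and Mrc1 lower in NDL. Cd14 also lay higher in NDL, at 10.39, 10.30 and 9.42, than in Met1, at 8.63, 8.43 and 8.73, without a call. The 6 fibroblast markers averaged 8.07 to 9.12 on the Met1 arrays, 9.30 to 9.78 on the NDL arrays and 9.47 to 11.18 on the SSM2 arrays. Of them, 3 were called higher and 1 lower in NDL than in Met1, 1 lower in NDL than in SSM2, and 1 higher and 3 lower in Met1 than in SSM2. Of the 5 T cell markers, 2 were lower in NDL than in Met1 and 2 higher in Met1 than in SSM2, and of the 5 endothelial markers 2 were lower in NDL than in SSM2. The shares of all genes called in each contrast are given below with the respiratory chain genes. The 8 adipocyte markers, which include genes of mitochondria-rich brown fat, averaged 5.07 to 6.51 over the arrays with no call in any contrast. Among them Adipoq varied widely, also within lines. It stood at 5.47, 6.88 and 5.69 in NDL, 4.07, 4.45 and 6.02 in Met1, and 8.31, 7.58 and 5.44 in SSM2. The part of these cell types in the differences of the respiratory chain genes was not tested. These are bulk tumours, in which fewer cells of a type and less RNA per cell cannot be told apart.

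Respiratory chain genes were on the whole higher in NDL tumours than in Met1 tumours, with smaller differences between NDL and SSM2. The mean log2 signal of the 93 genes was 9.16, 9.29 and 8.96 on the NDL arrays, 8.81, 8.64 and 8.86 on the Met1 arrays, and 8.74, 9.08 and 8.94 on the SSM2 arrays. The lowest NDL array thus lay above all 3 Met1 arrays but below SSM2 replicate 2. Between NDL and Met1, 22 members were called higher in NDL (23.7% of the members, against 8.88% of all genes) and 3 were called lower (3.23%, against 10.2% of all genes). The median difference of the members was 0.34, against 0.06 for all genes, and 71 of the 93 differences were above 0 (76.3%, against 57.8% of all genes).

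Between NDL and SSM2, 12 members were called higher in NDL (12.9%, against 9.35% of all genes) and 5 lower (5.38%, against 7.52%), with a median of 0.21 against 0.09 for all genes. Between Met1 and SSM2, 3 members were called higher in Met1 (3.23%, against 7.1% of all genes) and 3 lower (3.23%, against 4.71%). There the median of the members was -0.16 while that of all genes was 0.04, and 33 of 93 differences were above 0 (35.5%, against 57.5% of all genes). Under 2 other scalings this even split became 2 higher and 5 lower (cyclic loess) and 2 higher and 3 lower (equal array medians). A moderated F-test over the 3 lines called 29 of the 93 members, against 5007 of all 19938 genes (25.1%). In at least 1 contrast, 35 of the 93 members were called, against 5714 of all genes (28.7%).

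These counts moved with single arrays, as did those of all 19938 genes. Over all genes, the 1771 called higher in NDL than in Met1 became 1220 without NDL replicate 1 and 1360 without NDL replicate 2. Without Met1 replicate 1 they were 1196, without Met1 replicate 2 they were 1168, and without NDL replicate 3 they were 3371. Against SSM2, the 1865 of all genes became 1195 without NDL replicate 1, 1292 without NDL replicate 2 and 3996 without NDL replicate 3. Without NDL replicate 1 or without NDL replicate 2, 8 members were called higher in NDL than in Met1; without Met1 replicate 1 it was 11 and without Met1 replicate 2 it was 7, whereas without NDL replicate 3 it was 37. The 3 called lower became 5 without NDL replicate 3. Against SSM2 the 12 called higher became 5 without NDL replicate 1, 4 without NDL replicate 2, 5 without SSM2 replicate 1, 7 without SSM2 replicate 3 and 24 without NDL replicate 3. The 5 called lower became 3 without NDL replicate 1 or 2 or any 1 Met1 array, and 8 without NDL replicate 3. Between Met1 and SSM2 the 3 called higher became 1 without NDL replicate 1, any 1 Met1 array, or SSM2 replicate 1 or 2, and 5 without SSM2 replicate 3. The 3 called lower there became 1 without Met1 replicate 1 or 2 or SSM2 replicate 2, 5 without NDL replicate 3 and 6 without SSM2 replicate 1. The 29 of the F-test became 13 and 14 without NDL replicates 1 and 2, 16, 16 and 18 without Met1 replicates 1 to 3, and 45 without NDL replicate 3. With NDL replicates 1 and 2 both left out, 1 member was called higher in NDL than in Met1 and 2 higher than in SSM2.

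Cytosolic ribosomal proteins, another large group of genes with short transcripts, also differed between arrays of a line. Their mean over 57 genes, a set added after the data had been seen, was 10.78, 10.78 and 10.34 on the NDL arrays, 10.29, 10.17 and 10.33 on the Met1 arrays, and 10.35, 10.85 and 10.72 on the SSM2 arrays. NDL replicates 1 and 2 and SSM2 replicates 2 and 3 were thus high, and NDL replicate 3 was near the Met1 arrays. Of these 57 genes 10 were called higher in NDL than in Met1 (17.5%, against 8.88% of all genes) and 1 lower. Their median difference there was 0.25, against 0.06 for all genes. Of the differences 45 were above 0 and 12 below (78.9% above, against 76.3% of the respiratory chain genes and 57.8% of all genes). Between NDL and SSM2 none was called higher and 3 lower in NDL, with a median of 0.02 against 0.09 for all genes. Between Met1 and SSM2, 1 was called higher and 8 lower in Met1, with a median of -0.26 against 0.04. The part of this array pattern in the differences of the respiratory chain genes was not tested.

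**Figure D1:**
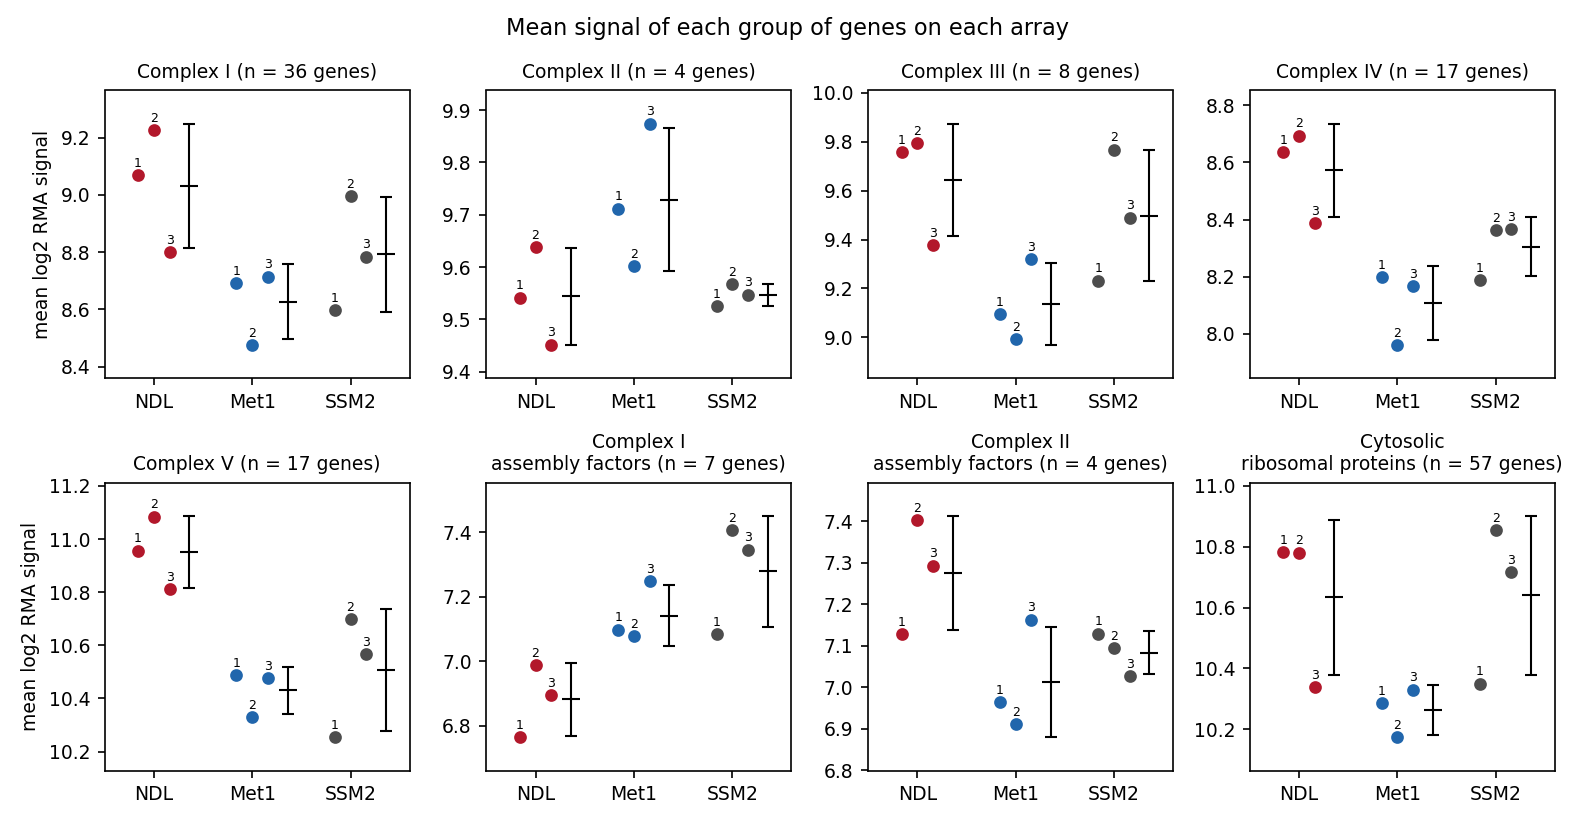
Each panel plots the mean log2 RMA signal of a group of genes on each of the 9 arrays (points, numbered by replicate; bars show the line's mean ± SD, n = 3), with panels scaled separately. Complex V lay highest on the NDL arrays, where its means were 10.96, 11.08 and 10.81, and the complex I assembly factors lay lowest there, at 6.76, 6.99 and 6.89.

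Complex I, the complex with the most genes, gave the most calls. Of its 36 measured subunits 11 were higher in NDL than in Met1 (30.6%, against 8.88% of all genes) and none lower (against 10.2%), with a median of 0.39. Between NDL and SSM2, 6 were higher in NDL (16.7%, against 9.35% of all genes) and 1 lower (2.78%, against 7.52%), with a median of 0.25. Between Met1 and SSM2, 2 were higher in Met1 (5.56%, against 7.1%) and 1 lower (2.78%, against 4.71%), with a median of -0.15. The array means of the complex were 9.07, 9.23 and 8.80 in NDL, 8.69, 8.47 and 8.71 in Met1, and 8.60, 9.0 and 8.78 in SSM2. NDL replicate 3 therefore lay within the range of SSM2 but above Met1.

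The core subunits of complex I carry the flavin and iron-sulphur clusters that move electrons. Of the 6 measured, Ndufs3 and Ndufs8 were called higher in NDL than in Met1, and none was called in the other contrasts. Ndufs3 (feature 10484912), a subunit of the ubiquinone-binding module, stood at 10.63, 10.72 and 10.46 in NDL, 9.81, 9.66 and 10.25 in Met1, and 9.92, 10.21 and 10.28 in SSM2. NDL and Met1 arrays did not overlap, and the difference was 0.70 (SE 0.17, 1.62-fold, limma adjusted p = 0.0233). Ndufs8, which holds a pair of iron-sulphur clusters, stood at 9.15, 9.49 and 8.61 in NDL against 8.38, 8.03 and 8.35 in Met1, a difference of 0.83 (SE 0.22, adjusted p = 0.0312). Both calls were lost without NDL replicate 1 or 2 or Met1 replicate 1 or 2, and that of Ndufs8 also without Met1 replicate 3 (limma adjusted p from 0.0664 to 0.113). Ndufs1, the largest core subunit, showed another order, at 8.92, 8.25 and 9.46 in NDL, 9.02, 9.25 and 9.24 in Met1, and 9.45, 9.28 and 9.43 in SSM2. Its lowest value was on NDL replicate 2.

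Among the 30 accessory subunits of complex I, which surround the core and are needed for its assembly and stability, 9 were higher in NDL than in Met1 (30.0%, against 8.88% of all genes). The largest difference was that of Ndufa1 (feature 10604100), a short membrane subunit encoded on the X chromosome. It stood at 9.11, 9.35 and 8.61 in NDL, 7.76, 7.43 and 7.29 in Met1, and 7.27, 9.21 and 7.73 in SSM2. The difference between NDL and Met1 was 1.53 (SE 0.45, 2.88-fold, limma adjusted p = 0.0466), but SSM2 replicate 2 reached the level of the NDL arrays, and NDL and SSM2 overlapped (0.95, adjusted p = 0.170). Ndufb8, a membrane arm subunit, stood at 9.24, 9.36 and 8.30 in NDL against 7.47, 7.49 and 7.94 in Met1 (1.34, SE 0.33, adjusted p = 0.0236). Ndufb3, another membrane arm subunit, stood at 7.64, 8.18 and 7.48 in NDL against 6.62, 6.55 and 6.91 in Met1 (1.08, SE 0.26, adjusted p = 0.0217). In each of these genes NDL replicate 3 was the lowest NDL array and still above every Met1 array. The calls of Ndufb8 and Ndufb3 were lost without NDL replicate 1 or 2 or Met1 replicate 1 or 2 (limma adjusted p from 0.0572 to 0.0942), and that of Ndufa1 without any of those 4 arrays, Met1 replicate 3 or SSM2 replicate 3 (0.0510 to 0.140).

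Against both other lines, 3 accessory subunits were higher in NDL. Ndufc2 (feature 10555055), a membrane arm subunit, stood at 10.43, 10.77 and 10.09 in NDL, 9.42, 8.98 and 9.62 in Met1, and 9.45, 9.86 and 9.39 in SSM2, so that NDL overlapped neither. Its signal exceeded that of Met1 by 2.13-fold (log2 difference 1.09, SE 0.23, limma adjusted p = 0.0116) and that of SSM2 by 1.82-fold (0.86, SE 0.23, adjusted p = 0.0350). Ndufa3 stood at 9.45, 9.71 and 9.16 in NDL, 9.12, 8.49 and 8.69 in Met1, and 8.43, 8.80 and 8.73 in SSM2 (0.68 against Met1 and 0.79 against SSM2, adjusted p = 0.0492 and 0.0308). Ndufa5, whose promoter is shown above, stood at 8.51, 8.69 and 8.35 in NDL, 7.97, 7.78 and 8.12 in Met1, and 7.72, 8.12 and 7.76 in SSM2 (0.56 and 0.65, adjusted p = 0.0344 and 0.0225). The call of Ndufc2 against Met1 held with each array left out in turn. Its call against SSM2 and both calls of Ndufa3 and Ndufa5 were lost without NDL replicate 1 or 2 (limma adjusted p up to 0.165). Beyond these arrays, the call of Ndufc2 against SSM2 also needed Met1 replicate 1 and SSM2 replicates 1 and 3. That of Ndufa3 against Met1 needed Met1 replicates 2 and 3 and every SSM2 array, and against SSM2 it needed Met1 replicate 3 and every SSM2 array. That of Ndufa5 against Met1 needed every Met1 array, and against SSM2 it needed SSM2 replicates 1 and 3. Over all of these the lowest adjusted p of a lost call was 0.0508.

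Further accessory subunits were called against 1 line. Ndufa2, a peripheral arm subunit, stood at 9.65, 10.19 and 9.29 in NDL against 8.45, 9.23 and 8.13 in SSM2 (1.10, SE 0.31, limma adjusted p = 0.0450), and Met1 lay at 9.21, 8.78 and 9.16. Ndufa6, which binds the mitochondrial acyl carrier protein, stood at 9.17, 9.17 and 8.75 in NDL against 7.74, 8.48 and 8.03 in SSM2 (0.94, SE 0.21, adjusted p = 0.0187). Ndufa4, grouped here with complex I by name, is now counted as a subunit of complex IV. It stood at 11.29, 11.30 and 11.39 in NDL, 10.94, 10.72 and 10.54 in Met1, and 11.29, 11.36 and 10.96 in SSM2. Its difference between NDL and Met1 was 0.59 (SE 0.14, adjusted p = 0.0219), while NDL and SSM2 overlapped. Its paralogue Ndufa4l2, induced by hypoxia in other settings, lay between 5.54 and 6.07 on all 9 arrays and was not called. The calls of Ndufa2, Ndufa6 and Ndufa4 were all lost without NDL replicate 1 or 2 (limma adjusted p up to 0.139). That of Ndufa2 was also lost without any 1 Met1 array or SSM2 replicate 1 or 3, that of Ndufa6 without SSM2 replicate 1, and that of Ndufa4 without Met1 replicate 2 or 3, with 0.0507 as the lowest adjusted p of a lost call. The last 2 accessory subunits called between NDL and Met1, Ndufab1 (0.88, adjusted p = 0.0200), the acyl carrier protein, and Ndufb11 (0.81, adjusted p = 0.0335), were lost without NDL replicate 1 or 2 or Met1 replicate 1 or 2 (0.0615 to 0.113).

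Accessory subunits of complex I also gave the members highest and lowest in SSM2, Ndufs4 and Ndufb5. Another, Ndufc1, was called only between Met1 and SSM2. Ndufs4 (feature 10412251), an accessory subunit at the base of the NADH-oxidising module, stood at 8.79, 9.04 and 9.32 in SSM2, 8.14, 7.70 and 8.02 in NDL, and 8.04, 7.83 and 8.22 in Met1. The SSM2 arrays lay above all 6 others. It was 2.14-fold lower in NDL (log2 difference -1.10, SE 0.18, limma adjusted p = 0.00451) and 2.03-fold lower in Met1 (-1.02, SE 0.18, adjusted p = 0.00715), and both calls held with each array left out in turn. Ndufb5, a membrane arm subunit, was lowest in SSM2, at 9.61, 9.47 and 9.65 against 9.92, 10.06 and 9.96 in NDL and 9.97, 9.89 and 9.99 in Met1. Its differences were small, at 0.41 for NDL (SE 0.09, adjusted p = 0.0214) and 0.38 for Met1 (SE 0.09, adjusted p = 0.0345). Ndufc1 was higher in Met1, at 10.23, 10.15 and 10.38, than in SSM2, at 9.70, 9.48 and 9.88 (0.57, SE 0.14, adjusted p = 0.0374), and NDL replicates 1 to 3 lay at 9.66, 9.66 and 10.01. The call of Ndufb5 against NDL was lost without NDL replicate 2 or SSM2 replicate 2 (limma adjusted p = 0.0602 and 0.0658). Those of Ndufb5 and Ndufc1 between Met1 and SSM2 were lost without NDL replicate 1, any 1 Met1 array, or SSM2 replicate 1 or 2 (0.0549 to 0.129).

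The complex I assembly factors help build the complex and are not part of the finished enzyme. Of the 7 measured, none was called higher in NDL. Lower in NDL were 2 against Met1 (28.6%, against 10.2% of all genes) and 3 against SSM2 (42.9%, against 7.52%), with medians of -0.26 and -0.42. Ndufaf2 (feature 10412054), which acts late in assembly, stood at 6.93, 6.96 and 6.92 in NDL, 7.75, 7.75 and 7.71 in Met1, and 7.83, 8.45 and 7.99 in SSM2. All 3 NDL arrays lay below the other 6. NDL lay 1.74-fold below Met1 (log2 difference -0.80, SE 0.15, limma adjusted p = 0.00745) and 2.22-fold below SSM2 (-1.15, SE 0.15, adjusted p = 0.00159), and both calls held with each array left out in turn. Without NDL replicates 1 and 2 together, the call against SSM2 held (adjusted p = 0.0472) and that against Met1 did not (0.0975).

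Ndufaf4 (feature 10503643), an early assembly factor that works with Ndufaf3, stood at 6.38, 6.54 and 6.58 in NDL, 6.93, 7.16 and 7.03 in Met1, and 6.93, 6.93 and 7.45 in SSM2. It was lower in NDL by 0.54 than in Met1 (SE 0.15, limma adjusted p = 0.0417) and by 0.60 than in SSM2 (SE 0.15, adjusted p = 0.0308), without overlap. Ndufaf7, a methyltransferase that acts on a core subunit, stood at 7.45, 7.59 and 7.68 in NDL against 8.08, 8.36 and 7.84 in SSM2 (-0.52, adjusted p = 0.0385). Ndufaf1, another early factor, was lower in Met1, at 7.29, 7.50 and 7.29, than in SSM2, at 7.79, 8.28 and 8.12 (-0.70, adjusted p = 0.0244). Both calls of Ndufaf4 were lost without NDL replicate 1 or 2 or any 1 Met1 array. That of Ndufaf7 was lost without any of these 5 or SSM2 replicate 1 or 2, and that of Ndufaf1 without any 1 Met1 array or SSM2 replicate 2 or 3 (limma adjusted p over all of these from 0.0511 to 0.142). Ndufaf3 and Ndufaf6 were not called and lay between 7.63 and 8.29 and between 5.32 and 6.09.

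**Figure D2:**
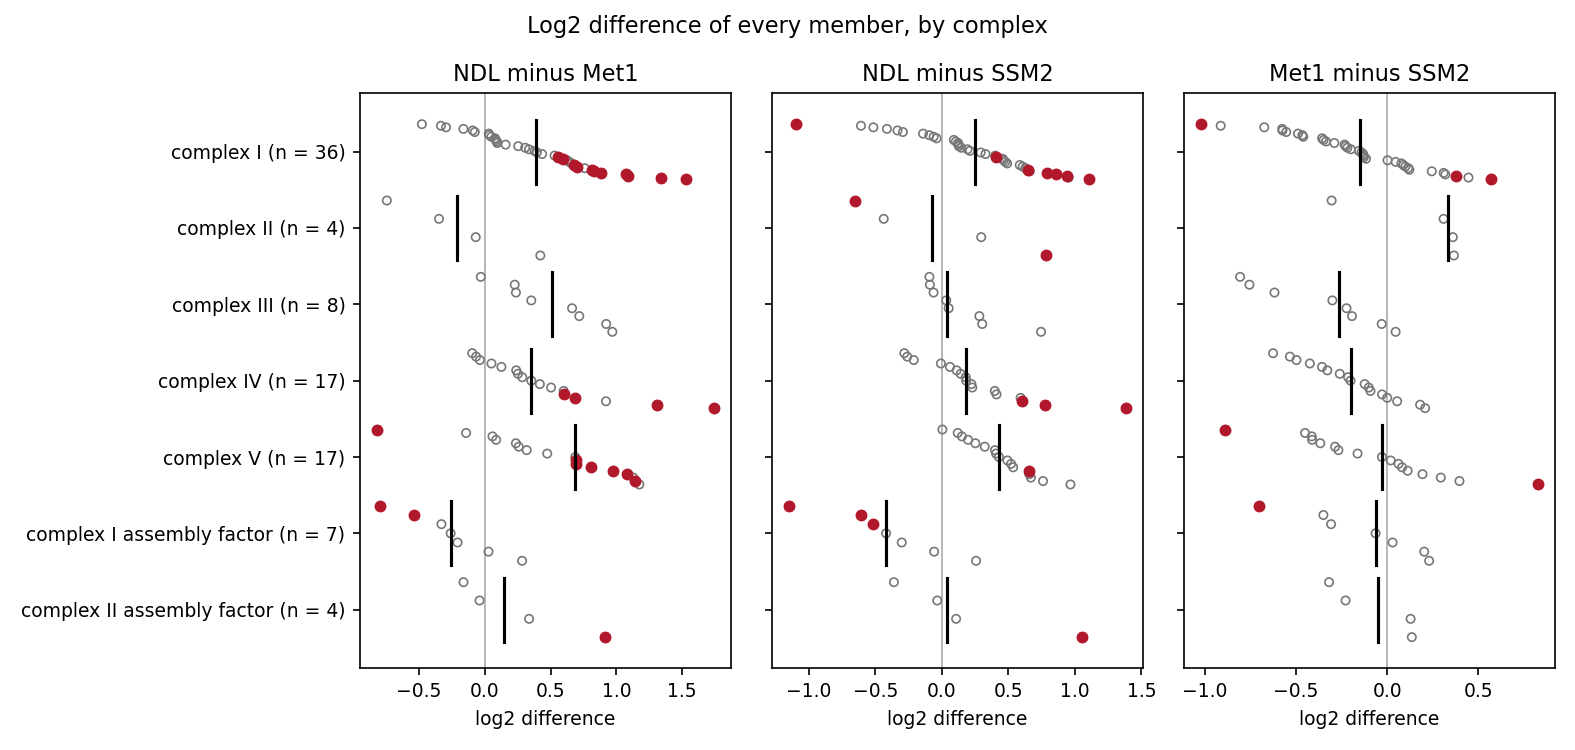
Each point is 1 of the 93 genes, placed by its log2 difference between 2 lines (horizontal axis) and grouped by complex; filled points passed the limma test at an adjusted p under 0.05 and vertical bars mark each group's median. All 17 complex V genes lay above 0 for NDL minus SSM2 (as did 60.6% of all genes), while the complex I assembly factors had medians below 0 in all 3 panels (-0.26, -0.42 and -0.06).

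Complex II links the citric acid cycle to the chain, and its 4 subunits did not move together. Between NDL and Met1 none was called (median -0.21). Between NDL and SSM2 the membrane anchor Sdhc was higher and the catalytic flavoprotein Sdha was lower in NDL. Sdhc (feature 10360046) stood at 10.17, 10.26 and 10.28 in NDL, 9.92, 9.70 and 9.82 in Met1, and 9.42, 9.23 and 9.71 in SSM2. The NDL arrays lay above the other 6, and NDL exceeded SSM2 1.72-fold (log2 difference 0.78, SE 0.13, limma adjusted p = 0.00574) and Met1 by 0.42 (adjusted p = 0.0610). Sdha (feature 10410625) stood at 9.25, 9.11 and 9.56 in NDL, 9.59, 9.67 and 9.70 in Met1, and 9.91, 9.98 and 9.99 in SSM2, so that the lines followed one another without overlap. It was lower in NDL than in SSM2 by 0.65 (SE 0.12, adjusted p = 0.00927), and the difference from Met1 was -0.35 (adjusted p = 0.0888). The calls of Sdhc and Sdha between NDL and SSM2 held with each array left out in turn.

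The iron-sulphur subunit Sdhb stood at 8.79, 9.05 and 8.24 in NDL, 9.34, 9.17 and 9.81 in Met1, and 9.26, 9.46 and 8.67 in SSM2, and was not called (NDL minus Met1 -0.75, SE 0.28, limma adjusted p = 0.102). The second membrane anchor, Sdhd, lay between 9.52 and 10.17 on all arrays and was not called either. Among the 4 complex II assembly factors, Sdhaf1, which helps insert iron-sulphur clusters into Sdhb, stood at 8.43, 9.09 and 8.40 in NDL, 7.86, 7.76 and 7.56 in Met1, and 7.70, 7.86 and 7.22 in SSM2. NDL lay above both without overlap, by 0.92 (SE 0.23, adjusted p = 0.0241) and 1.05 (SE 0.23, adjusted p = 0.0163). The first call was lost without NDL replicate 2 or any 1 Met1 array (limma adjusted p from 0.0551 to 0.0883), and the second held with each array left out. Sdhaf2, which attaches the flavin to Sdha, lay at 8.11, 7.92 and 8.35 in NDL, 8.07, 8.16 and 8.27 in Met1, and 8.47, 8.47 and 8.52 in SSM2. Sdhaf3 and Sdhaf4 lay between 5.70 and 6.76. None of these 3 was called.

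Complex III, which passes electrons from ubiquinol to cytochrome c, gave no call in any contrast of 2 lines among its 8 genes. The moderated F-test over the 3 lines called 1 of them, Uqcrfs1 (limma adjusted p = 0.0478). The median difference of the complex was 0.51 between NDL and Met1, 0.04 between NDL and SSM2 and -0.26 between Met1 and SSM2. The 2 large core proteins Uqcrc1 and Uqcrc2 moved little, at 10.33 to 10.81 and 10.42 to 10.87 over all arrays. The small subunits Uqcr11 and Uqcr10 had larger differences with larger standard errors. Uqcr11 stood at 9.42, 9.70 and 8.41 in NDL, 8.28, 8.10 and 8.25 in Met1, and 7.85, 9.16 and 8.29 in SSM2 (NDL minus Met1 0.97, SE 0.39, limma adjusted p = 0.123). Uqcr10 stood at 9.36, 9.29 and 8.79 in NDL against 8.14, 7.97 and 8.55 in Met1, with SSM2 at 8.39, 9.56 and 8.57 (0.92, SE 0.31, adjusted p = 0.0769). In both, SSM2 replicate 2 lay with the NDL arrays. The Rieske iron-sulphur protein Uqcrfs1 was nearest to a call in Met1, where it stood at 7.32, 7.38 and 7.89, against 8.34, 8.50 and 7.89 in NDL (adjusted p = 0.0567) and 8.04, 8.58 and 8.39 in SSM2 (-0.81 for Met1 minus SSM2, adjusted p = 0.0519). Uqcr10, Uqcr11 and Uqcrfs1 were picked out after their values had been seen.

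Complex IV, cytochrome c oxidase, had 4 of 17 genes higher in NDL than in Met1 (23.5%, against 8.88% of all genes), Ndufa4 not being among the 17. Against SSM2, 3 were higher in NDL (17.6%, against 9.35%). None was lower in NDL in either contrast and none was called between Met1 and SSM2. The largest difference of any member was that of Cox7a1 (feature 10551836), the isoform of subunit 7a found in heart and skeletal muscle. It stood at 7.68, 8.08 and 7.26 in NDL, 6.05, 5.60 and 6.15 in Met1, and 5.89, 5.97 and 7.02 in SSM2. NDL arrays lay above all others, although SSM2 replicate 3 came close. NDL exceeded Met1 3.34-fold (log2 difference 1.74, SE 0.33, limma adjusted p = 0.00766) and SSM2 2.61-fold (1.38, SE 0.33, adjusted p = 0.0244). The call against Met1 held with each array left out in turn, and that against SSM2 was lost without NDL replicate 1 or 2 or SSM2 replicate 1 or 2 (adjusted p from 0.0746 to 0.0833).

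Because Cox7a1 is found in muscle, though this does not make it a marker of muscle alone, the 10 skeletal muscle markers are given beside it. Their mean was 5.99, 6.12 and 5.77 on the NDL arrays, 5.67, 5.59 and 5.55 on the Met1 arrays, and 5.60, 5.72 and 5.58 on the SSM2 arrays. Of the 10 genes, 2 were called higher in NDL than in Met1 (20.0%, against 8.88% of all genes) and 1 higher than in SSM2 (10.0%, against 9.35%). In each of these contrasts 9 of the 10 differences were above 0 (90.0%, against 57.8% and 60.6% of all genes). Myoglobin, Mb, stood at 8.42, 8.43 and 8.43 in NDL, 6.62, 6.18 and 6.26 in Met1, and 7.25, 7.25 and 6.20 in SSM2 (2.07 and 1.53 above them, limma adjusted p = 0.00123 and 0.00659). Atp2a1, the calcium pump of fast muscle, was the other call, at 5.69, 6.08 and 5.79 in NDL and 5.46, 5.51 and 5.19 in Met1 (0.46, adjusted p = 0.0432). It was lost in each fit with 1 array left out except that without NDL replicate 3 (limma adjusted p from 0.0513 to 0.144). The muscle creatine kinase Ckm lay between 5.64 and 6.47 and the fast myosin Myh4 between 4.21 and 4.78, under the 25th percentile of gene signal, on all 9 arrays, with no call. The part of muscle tissue, or of any other tissue, in the Cox7a1 difference was not tested.

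The widely expressed partner Cox7a2 (feature 10595280) was higher in NDL too, and its arrays were tight. It stood at 9.96, 10.01 and 9.92 in NDL, 9.41, 9.21 and 9.47 in Met1, and 9.23, 9.28 and 9.58 in SSM2. The difference was 0.60 from each line (SE 0.12, 1.51-fold, limma adjusted p = 0.0105 against Met1 and 0.0126 against SSM2), and both calls held with each array left out in turn. Cox7a2l, a relative that joins complexes III and IV into supercomplexes, overlapped across the lines at 9.57, 9.81 and 8.91 in NDL, 9.46, 9.15 and 9.54 in Met1, and 9.40, 9.97 and 9.55 in SSM2. Within this family, then, the muscle and the common isoform differed in the same direction in NDL, and the supercomplex factor was not called.

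Cox6b1 (feature 10562059), a subunit on the outer face of the enzyme, was the other complex IV gene highest in NDL. It stood at 10.79, 10.94 and 10.47 in NDL, 9.67, 9.10 and 9.52 in Met1, and 9.68, 10.34 and 9.87 in SSM2. The 3 lines did not overlap, with SSM2 between the others. NDL exceeded Met1 2.47-fold (log2 difference 1.31, SE 0.22, limma adjusted p = 0.00411) and SSM2 1.71-fold (0.77, SE 0.22, adjusted p = 0.0440). The first call held with each array left out in turn, and the second was lost without NDL replicate 1 or 2, Met1 replicate 1 or 3, or SSM2 replicate 1 or 3 (adjusted p from 0.0604 to 0.136). Cox7b completed the 4 calls against Met1, at 10.38, 10.05 and 9.82 in NDL and 9.69, 9.05 and 9.45 in Met1 (0.69, adjusted p = 0.0492). It was lost without NDL replicate 1 or 2, Met1 replicate 2 or 3, or SSM2 replicate 1 or 2 (0.0565 to 0.167).

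The other isoform pairs of complex IV gave no call. Cox4i1, the common form of subunit 4, stood at 10.79, 10.79 and 10.11 in NDL, 10.10, 9.90 and 9.88 in Met1, and 9.87, 10.67 and 9.95 in SSM2 (NDL minus Met1 0.60, SE 0.25, limma adjusted p = 0.137), and its lung isoform Cox4i2 lay between 5.77 and 6.29. Cox6a1 stood at 11.43, 11.53 and 10.87 in NDL, 10.48, 10.20 and 10.39 in Met1, and 10.40, 11.34 and 10.30 in SSM2 (0.92, SE 0.29, adjusted p = 0.0563). As in Ndufa1, NDL replicates 1 and 2 and SSM2 replicate 2 were the 3 highest arrays of Cox4i1 and Cox6a1. The muscle isoform Cox6a2 lay between 6.44 and 6.98, and the muscle isoform Cox8b between 5.11 and 5.82. The testis isoforms Cox6b2, Cox7b2 and Cox8c lay between 4.97 and 5.55, between 3.58 and 4.11, and between 5.57 and 6.11. The common form Cox8a stood at 10.06, 10.04 and 10.24 in NDL, 10.20, 9.67 and 9.75 in Met1, and 10.23, 10.05 and 10.83 in SSM2. Cox7a1 was thus the only one of these tissue-restricted isoforms (Cox4i2, Cox6a2, Cox6b2, Cox7a1, Cox7b2, Cox8b and Cox8c) that was called in any contrast. Cox6c, a small subunit of the membrane part, lay between 10.87 and 11.65 and was not called.

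**Figure D3:**
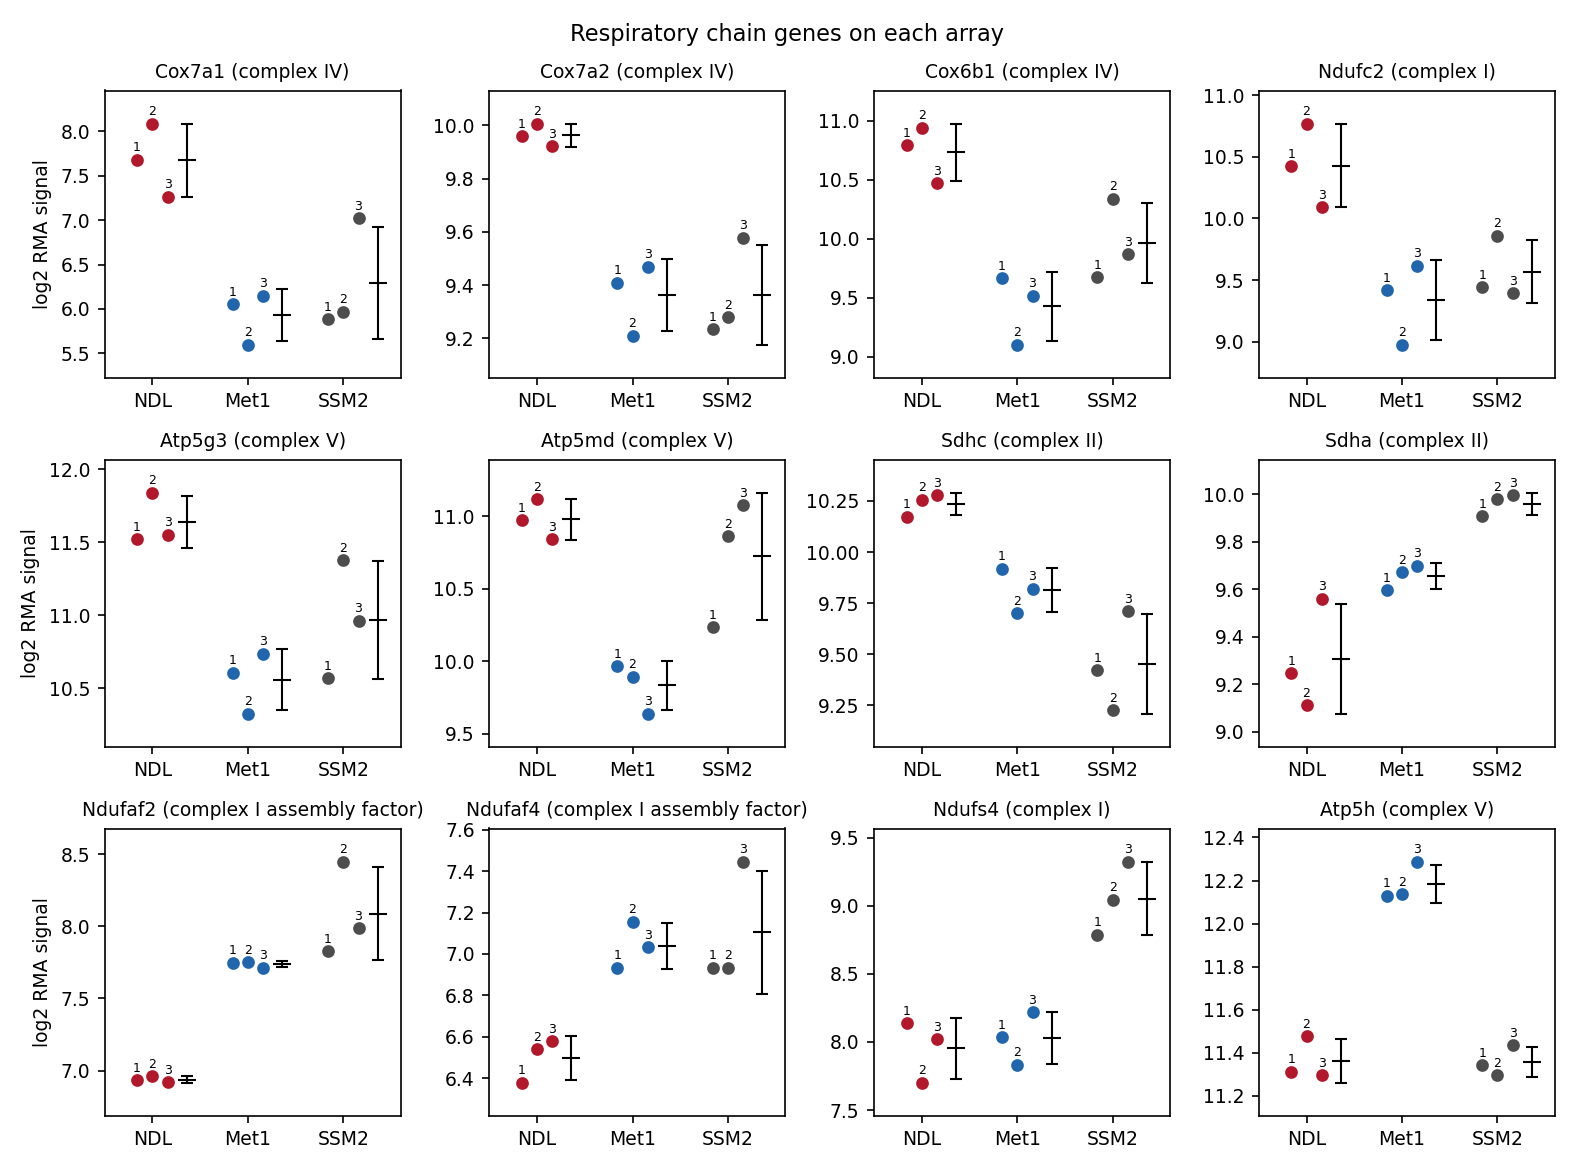
Log2 RMA signal (vertical axis, scaled per panel) of 12 respiratory chain genes on each array, with points numbered by replicate and bars for mean ± SD (n = 3). Cox7a2 lay between 9.92 and 10.01 on the NDL arrays, above the 9.21 to 9.58 of the other 6, while Ndufaf2 lay between 6.92 and 6.96 on them, below the other 6.

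Complex V, the ATP synthase, had a median difference of 0.69 between NDL and Met1. In NDL, 6 of its 17 genes were called higher (35.3%, against 8.88% of all genes) and 1 lower (5.88%, against 10.2%). Against SSM2 its median was 0.43 and all 17 differences were above 0, as were 60.6% of those of all genes. Only 1 was called there (5.88%, against 9.35% of all genes called higher). Leaving out NDL replicate 2 or Met1 replicate 2 took the first median to 0.51 and 0.50, and leaving out NDL replicates 1 and 2 together took the medians to 0.37 and 0.23. Array means of the complex were 10.96, 11.08 and 10.81 in NDL, 10.49, 10.33 and 10.48 in Met1, and 10.25, 10.70 and 10.57 in SSM2. Every NDL array lay above every array of the other lines.

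The catalytic F1 head gave 1 call. The alpha and beta subunits Atp5a1 and Atp5b lay between 11.59 and 12.33 and between 12.28 and 12.62, and the gamma subunit Atp5c1 between 11.68 and 12.17, with no call. The delta subunit Atp5d was called between NDL and SSM2. It stood at 11.30, 11.40 and 11.52 in NDL, 11.05, 11.24 and 11.16 in Met1, and 10.69, 10.64 and 10.92 in SSM2, and the lines did not overlap. NDL exceeded SSM2 1.57-fold (log2 difference 0.65, SE 0.11, limma adjusted p = 0.00635), and the call held with each array left out. The epsilon subunit Atp5e stood at 9.97, 10.32 and 9.16 in NDL, 8.55, 8.44 and 8.93 in Met1, and 8.25, 9.53 and 9.39 in SSM2, and its difference of 1.18 from Met1 did not pass (SE 0.39, adjusted p = 0.0705).

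The c-ring, which turns in the membrane as protons pass, is encoded by 3 paralogues that give the same mature protein. Atp5g3 (feature 10483756) was called higher in NDL than in Met1. It stood at 11.52, 11.84 and 11.55 in NDL, 10.61, 10.33 and 10.74 in Met1, and 10.57, 11.38 and 10.96 in SSM2, without overlap between NDL and either line. NDL exceeded Met1 2.12-fold (log2 difference 1.08, SE 0.21, limma adjusted p = 0.00835), a call that held with each array left out in turn, and SSM2 by 0.67 (SE 0.21, adjusted p = 0.0624), which was not called. Atp5g1 stood at 9.94, 10.24 and 9.50 in NDL, 9.47, 8.83 and 9.32 in Met1, and 8.88, 9.70 and 9.13 in SSM2 (0.69 above Met1, SE 0.27, adjusted p = 0.119). Atp5g2 stood at 11.19, 11.34 and 11.50 in NDL, 11.37, 11.00 and 10.96 in Met1, and 10.63, 10.99 and 11.12 in SSM2 (0.24, SE 0.17, adjusted p = 0.367). Whether the paralogues differ from one another in their response was not tested.

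Atp5h and Atp5md set Met1 apart in opposite directions. Atp5h (feature 10392930), subunit d of the peripheral stalk, was highest in Met1, at 12.13, 12.14 and 12.29, against 11.31, 11.48 and 11.30 in NDL and 11.34, 11.30 and 11.43 in SSM2. NDL lay 1.77-fold below Met1 (log2 difference -0.82, SE 0.10, limma adjusted p = 0.000876) and Met1 lay 1.77-fold above SSM2 (0.83, SE 0.10, adjusted p = 0.00133). NDL and SSM2 overlapped. The gene had 3 features on the array, which gave differences from -0.87 to -0.82 between NDL and Met1. Atp5md (feature 10603833), a small membrane subunit also known as DAPIT, had 3 features, and whether they read the gene itself or a near-identical copy elsewhere in the genome was not tested. Its signal was lowest in Met1, at 9.97, 9.89 and 9.64, against 10.97, 11.12 and 10.84 in NDL and 10.24, 10.86 and 11.08 in SSM2. NDL exceeded Met1 2.21-fold (1.14, SE 0.21, adjusted p = 0.00653), and Met1 lay below SSM2 by 0.89 (SE 0.21, adjusted p = 0.0277). The calls of Atp5h and that of Atp5md between NDL and Met1 held with each array left out in turn. The call of Atp5md between Met1 and SSM2 was lost without NDL replicate 1, any 1 Met1 array, or SSM2 replicate 2 or 3 (limma adjusted p from 0.0534 to 0.101).

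The remaining calls in complex V between NDL and Met1 were of stalk and membrane subunits. Atp5j, coupling factor 6, stood at 11.00, 11.02 and 11.42 in NDL, 10.45, 10.60 and 10.31 in Met1, and 10.78, 10.74 and 10.70 in SSM2, with no overlap among the lines (0.69 above Met1, SE 0.14, limma adjusted p = 0.00895). Atp5o, which links the stalk to the head, stood at 10.29, 10.39 and 9.85 in NDL against 9.36, 8.93 and 9.33 in Met1 (0.97, SE 0.21, adjusted p = 0.0129). Atp5j2 and Atp5k, membrane subunits f and e, were higher in NDL by 0.69 (SE 0.17, adjusted p = 0.0257) and 0.80 (SE 0.22, adjusted p = 0.0380). Atp5j was called in all fits with 1 array left out. Atp5o was lost without NDL replicate 1 or Met1 replicate 2, Atp5k without NDL replicate 1 or 2 or Met1 replicate 1 or 2, and Atp5j2 without any of these 4 or Met1 replicate 3 (limma adjusted p from 0.0519 to 0.131). Atp5l, subunit g, with 6 features, stood at 10.44, 10.61 and 8.95 in NDL, 9.15, 8.69 and 8.78 in Met1, and 8.26, 10.08 and 8.77 in SSM2. Its difference from Met1 was 1.13 but its SE was 0.54 (adjusted p = 0.184), with NDL replicate 3 inside the range of Met1.

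Taking both contrasts of a line, 7 members were highest in NDL, namely Cox7a1, Sdhaf1, Ndufc2, Cox6b1, Ndufa3, Cox7a2 and Ndufa5 (5.13% of all genes were highest in NDL). The 2 lowest in NDL were Ndufaf2 and Ndufaf4, against 3.59% of all genes. Atp5h was the 1 member highest in Met1 (4.09% of all genes) and Atp5md the 1 lowest there (2.18%). Ndufs4 was the 1 highest in SSM2 (1.91% of all genes) and Ndufb5 the 1 lowest there (2.26%). The 2 contrasts of a line share its arrays and are not independent.

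Genes that control or support the chain were read beside it. For scale, 8.88% of all genes were called higher and 10.2% lower in NDL than in Met1. Between NDL and SSM2 these shares were 9.35% and 7.52%, and between Met1 and SSM2 they were 7.1% and 4.71%. They apply to the groups of this and the following paragraphs. Of 19 measured genes of mitochondrial biogenesis and genome upkeep, 4 were higher and 1 lower in NDL than in Met1, 3 were higher and 2 lower in NDL than in SSM2, and 2 were lower in Met1 than in SSM2, with medians of -0.05, -0.18 and -0.29. Ppargc1a (feature 10529979), which encodes PGC-1alpha, stood at 6.69, 6.04 and 7.92 in NDL, 4.66, 4.71 and 4.32 in Met1, and 4.30, 4.38 and 4.31 in SSM2. The means of Met1 and SSM2 lay under the 25th percentile of signal, so the size of the difference is uncertain. NDL was higher by 2.32 and 2.55 (SE 0.40, limma adjusted p = 0.00463 and 0.00373), and both calls held with each array left out. Within NDL, replicate 3 had the highest Ppargc1a and the lowest mean of the respiratory chain genes. The same array also had the lowest NDL mean of the cytosolic ribosomal proteins, at 10.34 against 10.78 and 10.78. The part of Ppargc1a in the differences of the respiratory chain genes was not tested. Esrra, the gene of ERR-alpha, stood at 8.36, 8.27 and 7.65 in NDL, 7.37, 7.29 and 7.04 in Met1, and 7.54, 7.67 and 7.65 in SSM2 (0.86 above Met1, adjusted p = 0.0138; 0.47 above SSM2, adjusted p = 0.119). The related Esrrg was higher in NDL by 0.55 and 0.49 (adjusted p = 0.0105 and 0.0201). Without NDL replicate 1 or Met1 replicate 3 the call of Esrra was lost (0.0557 and 0.0570), and without NDL replicate 2 or SSM2 replicate 1 or 2 that of Esrrg against SSM2 (0.0522 to 0.0630).

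Genes that maintain and express mitochondrial DNA went in several directions. Twnk, the mitochondrial DNA helicase, was lowest in Met1, at 6.75, 6.62 and 6.78 against 7.79, 7.70 and 7.64 in NDL and 7.78, 8.43 and 8.11 in SSM2 (1.00 below NDL, limma adjusted p = 0.00326; -1.39 for Met1 minus SSM2, adjusted p = 0.00103). Mterf3, a negative regulator of mitochondrial transcription, stood at 6.30, 5.70 and 7.10 in NDL, 7.42, 7.67 and 7.64 in Met1, and 7.99, 7.89 and 7.93 in SSM2 (-1.21 and -1.57 for NDL, adjusted p = 0.0226 and 0.00895). Polrmt, the mitochondrial RNA polymerase, was higher in NDL than in SSM2 by 0.65 (adjusted p = 0.00489), and Ssbp1, a single-strand binding protein, was lower in NDL and in Met1 than in SSM2 (-0.78 and -0.92, adjusted p = 0.0233 and 0.0141). Nrf1, Gabpa and Tfam were not called. The calls of Twnk, of Polrmt and of Mterf3 against SSM2 held with each array left out in turn. That of Mterf3 against Met1 was lost without NDL replicate 1 or any 1 Met1 array, and those of Ssbp1 without NDL replicate 1 or 2 or SSM2 replicate 1 or 2 (against NDL) and without Met1 replicate 1 or 2 or SSM2 replicate 2 (against Met1), with adjusted p from 0.0531 to 0.0804.

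**Figure D4:**
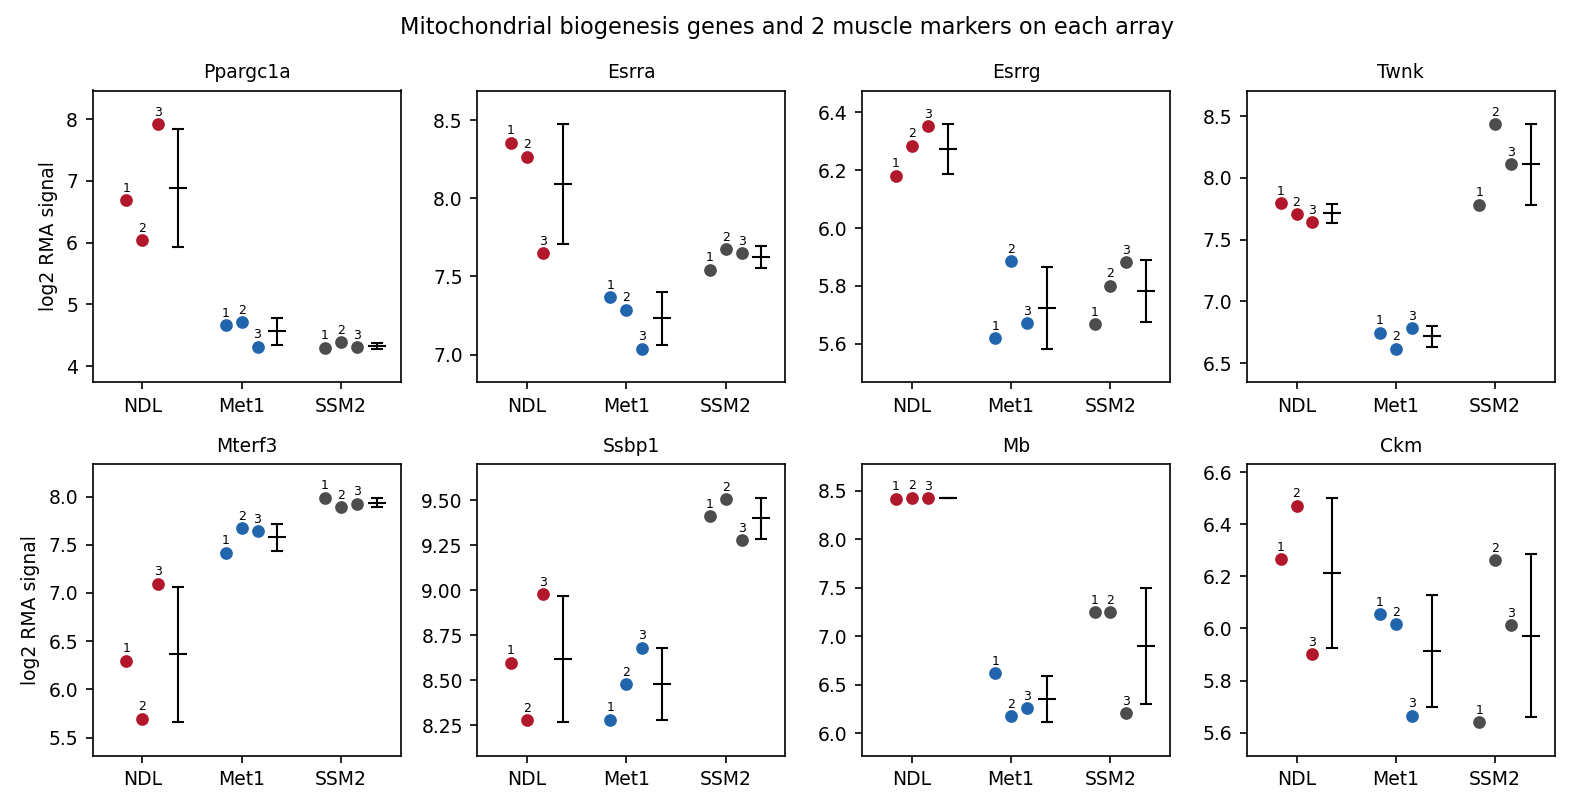
Log2 RMA signal (vertical axis, scaled per panel) of 6 genes of mitochondrial biogenesis and genome upkeep and of the muscle genes Mb and Ckm on each array, with points numbered by replicate and bars for mean ± SD (n = 3). Ppargc1a lay at 6.04 to 7.92 on the NDL arrays and at 4.30 to 4.71 on the other 6, and Twnk lay lowest on the Met1 arrays.

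Other groups of genes gave calls in both directions. Among 27 measured assembly factors whose names fall outside the symbol rule, 2 were higher and 4 lower in NDL than in Met1, 3 were higher and 3 lower in NDL than in SSM2, and 1 was higher and 2 lower in Met1 than in SSM2. Sco1, a copper chaperone of complex IV, was lower in NDL than in Met1 by 0.78 (limma adjusted p = 0.00571). Tmem70, needed for ATP synthase assembly, and Cox18, an insertase for complex IV, were lower in NDL than in SSM2 (-0.84 and -0.64, adjusted p = 0.00708 and 0.0102). Acad9, a complex I assembly factor, was higher in Met1 than in SSM2 by 0.87 (adjusted p = 0.00175). These 4 calls held with each array left out in turn. Of 14 other proteins of the chain and the mitochondrial membranes, 1 was higher and 2 lower in NDL than in Met1, 2 lower in NDL than in SSM2 and 1 lower in Met1 than in SSM2. Atpif1, the inhibitor of the ATP synthase, was lower in NDL than in SSM2 by 0.63 (adjusted p = 0.00950), which held with each array left out. It was also lower than in Met1 (-0.47, adjusted p = 0.0273), which was lost without NDL replicate 1 or any 1 Met1 array (0.0608 to 0.0954).

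The citric acid cycle supplies the chain with electrons. Of its 13 measured enzymes none was called between NDL and Met1 (median -0.0025), and in the other contrasts the 1 call was of Dlst, higher in NDL than in SSM2 by 0.35 (limma adjusted p = 0.0459, lost without any 1 of the 9 arrays, 0.0514 to 0.128) and in Met1 than in SSM2 by 0.65 (adjusted p = 0.00427, held with each array left out). Of 43 mitochondrial ribosomal proteins of the large subunit, 6 were higher and 4 lower in NDL than in Met1, 1 higher and 5 lower in NDL than in SSM2, and 1 higher and 2 lower in Met1 than in SSM2, with medians of -0.08, -0.02 and -0.08. Of 19 genes induced by hypoxia, 4 were lower in NDL than in Met1 and none higher, 3 were higher and 1 lower in NDL than in SSM2, and 1 was higher and 2 lower in Met1 than in SSM2.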

How the data were processed

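The deposited values are log2 signals of 35556 features; per the submitters' processing notes the authors made them with RMA in oligo 1.40.2, and the genome build of the design is not given in the sources used here. Of the features 21789 carried 1 gene symbol in the platform annotation and were used, with names updated through RefSeq gene IDs for 21698. The 1621 features with several symbols and the 12146 with none were left out. For genes with several features the one with the highest mean was kept, which gave 19938 genes. Genes of the symbol rule without a feature of 1 symbol, among them Cox7c and Ndufb4, were not analysed here. Arrays give no counts, so the number of arrays limits the precision.

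Lines were compared with limma 3.58.1 in R 4.3.3 (lmFit and eBayes, all 9 arrays sharing 1 estimate of the spread), with Benjamini-Hochberg adjustment over all genes in each contrast and a threshold of 0.05. The labels give no batch or scan date. Alternatives were cyclic loess, equal array medians, a filter on dim genes, an intensity trend with robust fitting, a replicate block, array weights, averaging the features of each gene, the 2 lines alone, and leaving out each array or NDL replicates 1 and 2 together, whose upper quartiles were lowest.

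The members and gene lists were chosen with earlier results of these data known. Genes were named where they had the 8 largest called differences per contrast and direction, were highest or lowest in a line, belonged to an isoform family or to complex II, or had the highest or lowest mean of their complex; for other lists, all calls where 5 or fewer were called, otherwise the 4 largest. Atp5a1, Atp5c1, Atp5d, Atp5e, Atp5j, Atp5j2, Atp5l, Atp5o, Cox7b, Ndufab1, Ndufb11, Ndufs1, Ndufs3, Ndufs8, Sdhaf4, Uqcr10, Uqcr11 and Uqcrc1, and Ckm, Myh4, Nrf1, Gabpa and Tfam, were named after their values had been seen. Not every gene the rule selects is described. Promoter windows came from RefSeq, GRCm38.p6.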

Additional observations from a re-analysis of the deposited data

How the results depend on the processing

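Of the 48 calls of a member in a contrast, 6 were called under all 18 alternatives, and a further 11 under all but leaving out NDL replicates 1 and 2 together, which made 17. With 1 array left out in turn, 18 of the 48 were called every time and 30 were lost at least once, and none changed sign under any alternative. Leaving out NDL replicates 1 and 2 left 9 calls of the 48. It gave 1 member higher and 1 lower in NDL than in Met1, 2 higher and 1 lower than in SSM2, and 4 in the F-test over the lines. Fewer samples enter that fit. Between NDL and SSM2, 6 members were higher with array weights and 3 with the 2 lines alone, against 12, and 3 were lower with equal array medians or the 2 lines alone, against 5. Between Met1 and SSM2, the 3 higher became 1 with an intensity trend and 5 with array weights, and the 3 lower became 5 with cyclic loess and 14 with array weights. The cause of these shifts was not tested, and the estimation of the array weights stopped before its convergence tolerance. With 1 array left out, counts ran from 7 to 37 higher and from 2 to 5 lower in NDL than in Met1, from 4 to 24 and from 3 to 8 against SSM2, and from 1 to 5 and from 1 to 6 in Met1 against SSM2, and the F-test called from 13 to 45. Cyclic loess took the share of all genes above 0 from 57.8% to 50.7% between NDL and Met1. Precision is limited by 3 arrays per line. Correlations of the deviations of same-numbered arrays of different lines ran from -0.35 to 0.29, and those of differently numbered arrays from -0.33 to 0.34. A pairing by replicate number was thus not seen, but 3 arrays per line are too few to exclude one. With the replicate block, 7 members were higher in NDL than in SSM2, and the F-test called 19; the other counts stayed within 1.5 times.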

Other observations

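The 18 members with more than 1 feature allow a check within the arrays. Over their 54 pairs of gene and contrast, the features of a gene gave log2 differences within 0.15 of each other in 46, with a median range of 0.063 and a largest range of 0.32. The features of a gene may share probes or target, so they are not independent measurements.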
